A study of Mus musculus with 2 samples.

Results

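The Mir101 family was examined in the embryonic mouse midbrain through its 2 quantified genes, Mir101a and Mir101b. They were found by their GENCODE symbols among the 1973 microRNA genes of the deposited count tables. Both were present in both libraries, and both passed the minimum of 10 counts in each library that 380 genes passed. The series holds 2 small RNA libraries of 1 group, midbrain of healthy B6NCrl mouse embryos at 12.5 days with no treatment in the labels, both sexes pooled and with RNA shorter than 30 nucleotides. Replicate 1 was made from a pool of 120 embryos and replicate 2 from a pool of 88, so each library averages over many animals and no condition, genotype or second tissue is compared. The labels call the libraries biological replicates.

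MicroRNAs are short RNAs cut from a hairpin precursor that guide Argonaute proteins to messenger RNAs. Target choice rests mainly on the seed, the bases 2 to 8 from the 5′ end. The miR-101 family is conserved among vertebrates and is best known for repressing Ezh2, the catalytic subunit of Polycomb repressive complex 2, which methylates histone H3 and keeps developmental genes silent. In the young brain it has also been studied for its action on the chloride importer Slc12a2 and on neuronal excitability.

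Mir101a (ENSMUSG00000065451.1) lies on GRCm38 (mm10) chromosome 4 from 101346945 to 101347027 on the minus strand. Its 83 nucleotide hairpin falls within an exon of the long non-coding RNA gene E130102H24Rik on the same strand, and the nearest protein-coding gene, Ak4, is 72.2 kb away. Mir101b (ENSMUSG00000065556.1) lies on chromosome 19 from 29135279 to 29135375 on the plus strand. Its 97 nucleotide hairpin sits in an intron of Rcl1, a protein-coding gene of ribosome biogenesis, on the same strand. Neither gene belongs to a microRNA cluster: the nearest other annotated microRNA gene was 1689.1 kb from Mir101a and 1126.1 kb from Mir101b. The 2 hairpins are shown whole because they are what the reads were counted on, with the 5p and 3p mature arms in capitals (RefSeq, GRCm38.p6).
Mir101a hairpin: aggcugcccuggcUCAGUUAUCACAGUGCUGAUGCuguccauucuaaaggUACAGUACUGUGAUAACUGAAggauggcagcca
Mir101b hairpin: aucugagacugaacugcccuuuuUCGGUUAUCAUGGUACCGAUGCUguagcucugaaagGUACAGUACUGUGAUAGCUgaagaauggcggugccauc

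The hairpins were identical at 69 of 99 aligned positions (69.7%), and the longest run they share is 20 bases, which covers the start of the 3p arm. RNAfold predicted a fold of -47.0 kcal/mol for Mir101a, with 20 of the 21 bases of its 3p arm paired to the 5p arm. For Mir101b it predicted -39.6 kcal/mol, with 15 of the 19 bases of its annotated 3p arm paired to the 5p arm. These folds are computed from sequence and were not measured.

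The 3p arms carry the sequence for which the family is named, and they are set side by side here with those of their relatives, seed bases in capitals.
miR-101a-3p: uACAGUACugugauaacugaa
miR-101b-3p: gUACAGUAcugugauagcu
miR-101c: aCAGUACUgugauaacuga
miR-144-3p: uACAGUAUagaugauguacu
miR-199a-3p: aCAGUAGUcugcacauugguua

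RefSeq starts miR-101b-3p 1 base further upstream than miR-101a-3p, so the seeds as annotated are UACAGUA and ACAGUAC and overlap by all but an end base. Each of these 7-base seeds belonged to 1 of the 1738 mature entries in the RefSeq microRNA table. Aligned without gaps to the Mir101b hairpin, miR-101a-3p matched at 20 of 21 bases, with the single substitution A16G, counted from the 5′ end of miR-101a-3p. The 5p arm of Mir101a matched the Mir101b hairpin at 17 of 22 bases, the substitutions being A3G, C11U, A12G, G15A and U17C. The deposited values are counts per gene. They do not separate the arms or show where reads start, so neither the arm used nor the seed in use was measured.

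Mir101c, annotated by its own gene on chromosome 9 from 3038669 to 3038743, has no row in the count tables. Its mature sequence is a run of 19 bases that also lies within miR-101a-3p, and at full length miR-101a-3p differs from the Mir101c hairpin by U1C and A21U. A search of 141767 GENCODE transcripts found the whole of miR-101a-3p in transcripts of only Mir101a and its host E130102H24Rik, and miR-101b-3p only in Mir101b. Reads that aligned to several places were counted for no gene (33.4% of all reads in each library). How many of them came from Mir101a was not tested, and the level of Mir101a is that of its uniquely placed reads.

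Mir101b was the more abundant of the 2 quantified genes in uniquely placed reads. It had 8714 own-strand reads in replicate 1 and 4896 in replicate 2, which is 1882 and 1745 CPM (counts per 1000000 reads assigned to a microRNA gene on its own strand). Its mean level was 1814 ± 97.0 CPM (SD, n = 2), and it took 0.188% of the assigned reads of replicate 1, with a 95% Wilson interval of 0.184 to 0.192%. In replicate 2 it took 0.175%, with an interval of 0.170 to 0.179%. Mir101b was thus slightly higher in replicate 1, and the intervals did not overlap.

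Mir101a had 1744 reads in replicate 1 and 1092 in replicate 2, or 377 and 389 CPM. Its mean level was 383 ± 8.84 CPM (SD, n = 2), and its share was 0.0377% (0.0359 to 0.0395%) and 0.0389% (0.0367 to 0.0413%). The intervals of the 2 libraries overlapped, and the gene stood at nearly the same level in both. The column read as the opposite strand held no read for Mir101a or Mir101b in either library, which allows up to 0.648 CPM in replicate 1 and 1.07 CPM in replicate 2 (3 counts). Intervals and floors cover counting error only, since amplified reads are not independent molecules. In whole tissue, fewer cells of a type and less RNA per cell cannot be told apart.

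**Figure D1:**
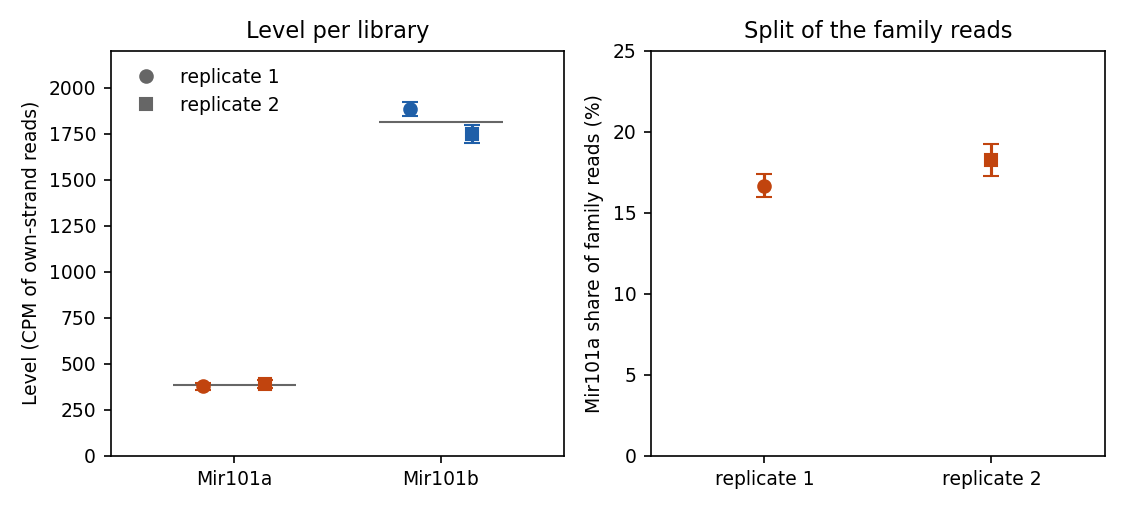
Left, level of Mir101a and Mir101b in CPM of own-strand reads, with a circle for replicate 1, a square for replicate 2, 95% Wilson intervals as bars and the mean as a grey line. Right, share of Mir101a in the uniquely placed reads of both genes, in percent with 95% Wilson intervals. It is 16.7% in replicate 1 and 18.2% in replicate 2.

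Together the 2 genes had 2259 CPM in replicate 1 and 2134 CPM in replicate 2, a mean of 2197 ± 88.2 CPM (SD, n = 2). CPM values are per gene and are not scaled by hairpin length. Among the 380 quantified genes, Mir101b ranked 75 by mean level (74 in replicate 1 and 76 in replicate 2) and Mir101a ranked 149 (146 and 147). Both stood above the median quantified gene, at 148 CPM, and the family as a single sum would have ranked 72. Next to Mir101b in the order were Mirlet7d (2051 ± 735 CPM) and Mir107 (1889 ± 41.2 CPM) above, and Mir467d (1803 ± 9.96 CPM) and Mir467c (1716 ± 105 CPM) below. The distance from Mir101b to each of these neighbours was within the SD of at least 1 gene of the pair. This is a description and not a test of difference. Mir107 was above Mir101b in both libraries and Mir467c below it in both, while Mirlet7d and Mir467d changed sides between the libraries. Next to Mir101a stood Mir7b (397 ± 184 CPM), Mir148a (388 ± 79.2 CPM), Mir223 (352 ± 96.5 CPM) and Mir384 (343 ± 17.4 CPM). Of these, only Mir384 was further from Mir101a than the SD of either gene, and it was lower in both libraries.

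**Figure D2:**
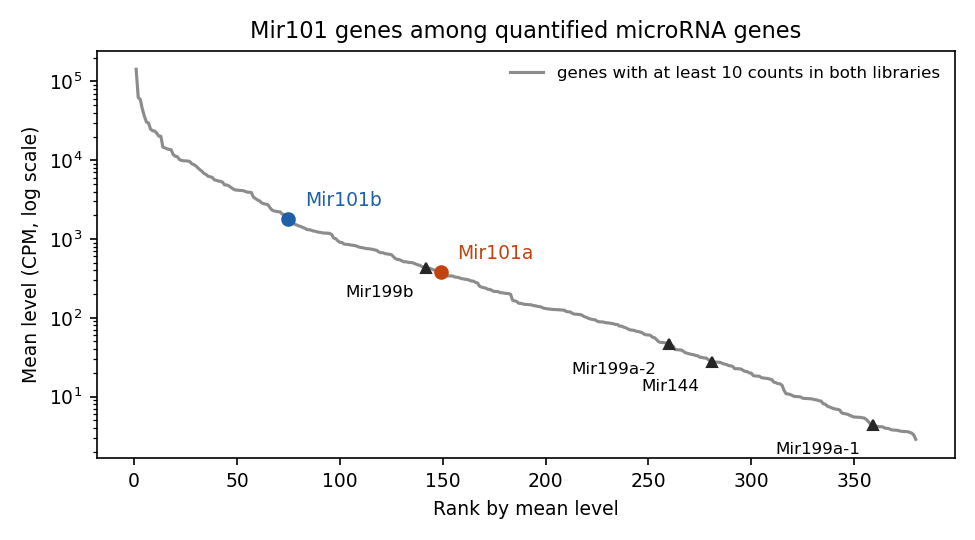
Mean level in CPM (log scale) of the 380 genes with at least 10 counts in both libraries, against their rank. Mir101b stands at rank 75 and Mir101a at rank 149. Triangles mark the genes whose 3p arm carries the same 6 bases near its start. Of these, Mir199b lies just above Mir101a and the other 3 lie far below it. Levels are of uniquely placed reads, which leave out reads that fit several Mir199 copies.

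By distance of log2 CPM over the 2 libraries, the genes most like Mir101b were Mir467d (distance 0.07), Mir107 (0.10), Mir467c (0.11), Mir15b (0.32) and Mir203 (0.39). Those most like Mir101a were Mirlet7f-2 (0.21), Mir384 (0.23), Mir185 (0.23), Mir542 (0.24) and Mir3074-1 (0.24). With 2 libraries this likeness is mostly one of level.

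The uniquely placed reads of the family were split unevenly between its 2 quantified genes. Reads that fit both Mir101a and Mir101c would be in no count here, and their number was not tested. Of the 10458 family reads of replicate 1, Mir101a held 16.7%, with a 95% Wilson interval of 16.0 to 17.4%. Of the 5988 of replicate 2 it held 18.2%, with an interval of 17.3 to 19.2%, and the mean was 17.5% ± 1.10 (SD, n = 2). Mir101b thus gave 4.997 reads for each read of Mir101a in replicate 1 and 4.48 in replicate 2. Per hairpin nucleotide, since the hairpins differ in length, the ratio of their levels was 4.28 and 3.84. The split differed between the libraries when each read was taken as independent (two-sided Fisher's exact test, p = 0.0114). Amplified reads are not independent molecules, so the counting error may be larger than the test takes it to be. The log2 ratio of Mir101a to Mir101b was 0.16 ± 0.06 (counting SE) higher in replicate 2, with a 95% interval of 0.04 to 0.28. This test compares 2 libraries, not conditions.

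Other pairs of paralogs were set beside this split as a description. In 15 listed pairs, the less abundant gene held a larger mean share than Mir101a in 10 and a smaller share in 5. The nearest were Mir99b beside Mir99a (17.6%), Mir152 beside Mir148a (17.9%) and Mir130b beside Mir130a (21.3%). More even were Mir92-1 beside Mir92b (23.8%), Mir219a-1 beside Mir219a-2 (29.0%), Mir125b-1 beside Mir125a (30.4%), Mir30a beside Mir30e (33.1%), Mir23a beside Mir23b (37.5%), Mir148b beside Mir148a (41.9%) and Mir10b beside Mir10a (42.7%). More uneven were Mir34a beside Mir34c (9.66%), Mir27a beside Mir27b (9.10%), Mir103-1 beside Mir103-2 (7.43%) and beside Mir107 (0.363%), and Mir26a-1 beside Mir26b (0.0191%). At least 7 of the 28 genes in these pairs share a mature sequence with another gene copy. They are Mir103-1, Mir103-2, Mir219a-1, Mir219a-2, Mir26a-1, Mir92-1 and Mir125b-1, and their reads that fit several copies are missing from these shares. Reads that fit both Mir101a and Mir101c would be missing from the share of Mir101a in the same way. How many there were was not tested. Over the 14 pairs with enough counts in both genes, the log2 ratio within the pair moved between the libraries by more than that of Mir101a to Mir101b in 8 and by less in 6, with a median absolute shift of 0.25.

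**Figure D3:**
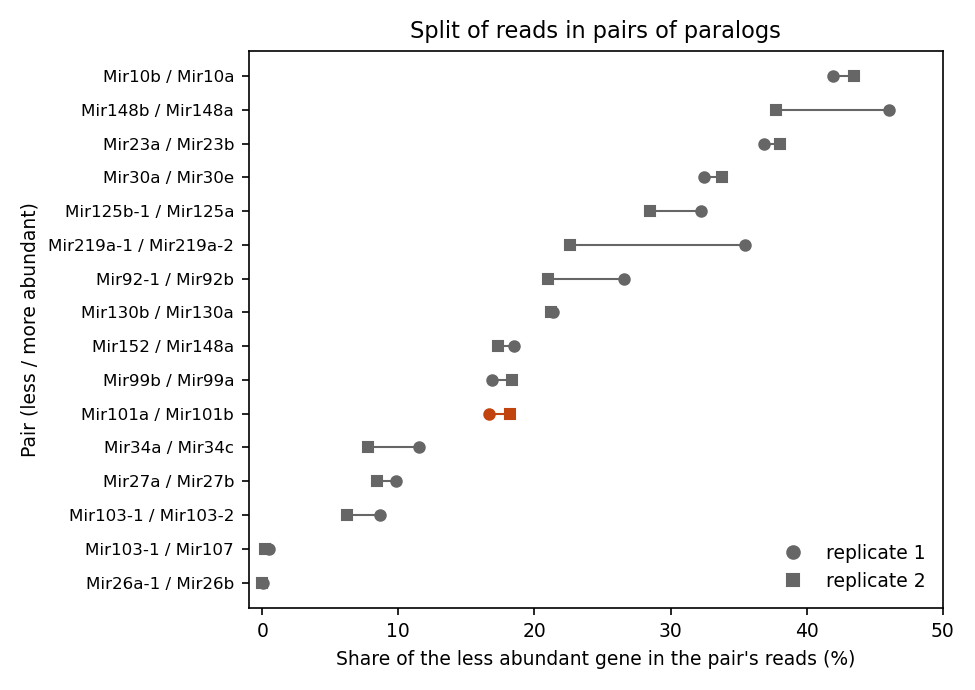
Share of the less abundant gene in the uniquely placed reads of each pair of paralogs, in percent, with a circle for replicate 1 and a square for replicate 2. The Mir101 pair (colour) lies at 16.7% and 18.2%, next to Mir99b and Mir99a, with 10 pairs more even and 5 more uneven.

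The replicates were then compared for each gene. For Mir101a the log2 ratio of replicate 2 over replicate 1 was 0.05 ± 0.06 (counting SE), and the gene was not called different by Fisher's exact test with Benjamini-Hochberg adjustment over the 380 genes (adjusted p = 0.532). The 95% interval of the log2 ratio ran from -0.06 to 0.16. Mir101b was lower in replicate 2 by a factor of 1.08, a log2 ratio of -0.11 ± 0.03 (counting SE), and was called by the same exact test (adjusted p = 5.64e-05). Of all 380 genes, 54.2% were called in either direction and 27.1% were called lower in replicate 2, so that 1 call among 2 genes is near the background.

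Both members moved less between the libraries than most genes. The absolute log2 ratio was larger than that of Mir101a in 336 of the 380 genes (88.4%) and larger than that of Mir101b in 288 (75.8%), against a median of 0.24 over all. Genes of similar level were counted too. Among 71 other genes within 2-fold of the mean level of Mir101a, 66 had a larger absolute ratio, the median was 0.27 and 53 (74.6%) were called. Among 42 within 2-fold of Mir101b, 26 had a larger ratio, the median was 0.18 and 32 (76.2%) were called. The spread between the libraries as a share of the mean was 2.31% for Mir101a and 5.35% for Mir101b. The common biological coefficient of variation by edgeR was 20.4%. That value is pooled over all 380 genes with counting noise set apart, so it is not the same measure as the spread of a single gene. How steady these genes are over more than 2 libraries was not measured.

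**Figure D4:**
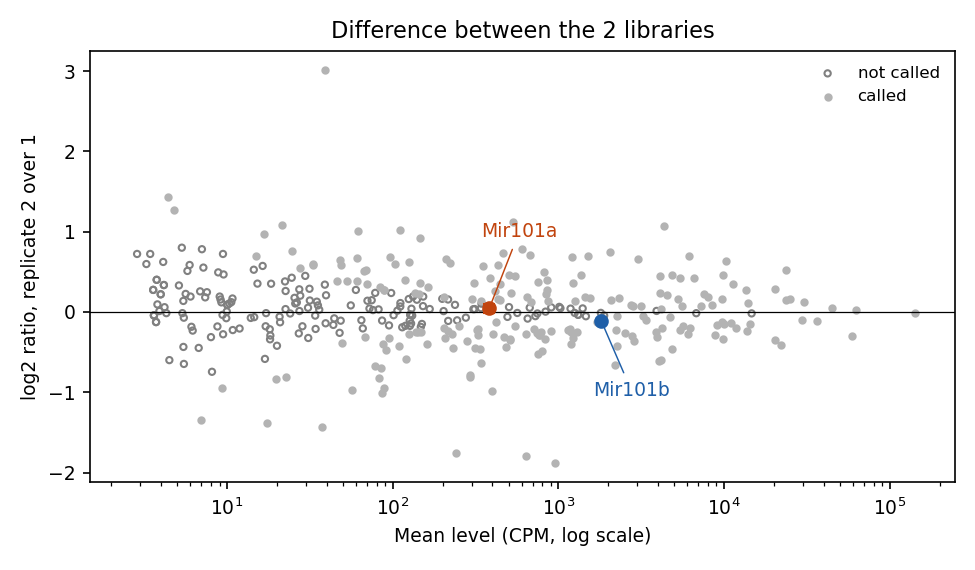
log2 ratio of replicate 2 over replicate 1 against mean level in CPM (log scale) for the 380 quantified genes; filled grey points were called at adjusted p under 0.05 and open points were not. Mir101a, at 0.05, and Mir101b, at -0.11, lie close to the zero line, with counting SE as bars that are mostly hidden by the points.

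Each quantified relative of the family by seed had fewer uniquely placed reads than Mir101b. The letters ACAGUA, bases 2 to 7 of miR-101a-3p, occurred within the first 8 bases of 7 of the 1738 mature entries, those of Mir101a, Mir101b, Mir101c, Mir144, Mir199a-1, Mir199a-2 and Mir199b. They begin at base 2 in miR-101a-3p and miR-144-3p, at base 3 in miR-101b-3p, and at base 1 in miR-101c and the miR-199 3p arms, as the printed sequences show. Mir199b, of a family found in mesenchymal cells, had 348 CPM in replicate 1 and 520 CPM in replicate 2 (434 ± 122, SD, n = 2). Mir199a-2 had 40.0 and 52.0 CPM and Mir199a-1 2.38 and 6.42 CPM. The mature 3p sequence of these 3 genes is the same, so reads of it that fit several places are missing from their counts. Their values therefore do not give the level of the 3p arm that carries the 6 letters. Mir144, an erythroid microRNA and the only other one here with the 6 letters at the seed position of miR-101a-3p, had 25.7 and 29.6 CPM, from 119 and 83 reads. In uniquely placed reads the 4 relatives summed to 512 ± 136 CPM, against 2197 CPM for Mir101a and Mir101b. That sum leaves out reads of the shared miR-199 3p arm, so it does not rank the seed relatives against the family. Of the 4, the 3 Mir199 genes were called higher in replicate 2, beside 27.1% of all 380 genes. Mir144 was not called (log2 ratio 0.20 ± 0.21, counting SE). The 3 called genes are of a single family and are counted again in the mesenchymal list below, and Mir199a-1 had only 11 and 18 reads. Over all 4 relatives, Mir144 included, the median log2 ratio was 0.48, beside 0.04 over all quantified genes.

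Several other microRNAs have been described as repressors of Ezh2, and a list of 21 such genes was counted beside Mir101. Of the 19 found in the table, all had reads in both libraries and 17 were quantified. They summed to 64416 ± 9637 CPM (SD, n = 2), far above the Mir101 family, led by Mir26b (23528 ± 1664 CPM), Mirlet7g (20205 ± 2811 CPM), Mirlet7i (11259 ± 1932 CPM) and Mir214 (4349 ± 2176 CPM). Replicate 2 had the higher level for 12 of the 17 by the test and the lower level for 2, while 3 were not called, beside 27.1% of all 380 genes in each direction. The median log2 ratio was 0.28, against 0.04 over all. All tested let-7 genes and Mir98 were called higher, and the only others called higher were Mir26b and Mir214. Most of the higher calls in this list thus came from let-7 genes. The genes called lower were Mir138-1 (-0.79 ± 0.07, counting SE) and Mir138-2 (-0.32 ± 0.08). The genes of both directions were named after their values were seen. By uniquely placed reads, Mir101b would stand between Mirlet7d at 2051 CPM and Mir98 at 1371 CPM. At least 8 of the 19 genes, both Mir26a copies and several let-7 genes among them, share a mature sequence with another gene, so the sum and the order leave out their reads that fit several copies. Ezh2 itself and other messenger RNAs were not measured in these libraries, so the list describes microRNA levels only.

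The tissue was checked against microRNAs of known cell types. Brain-enriched genes summed to 14038 ± 52.4 CPM over 24 detected genes, led by Mir137, Mir153, Mir219a-2 and Mir219a-1. At least 14 of the 24 share a mature sequence with another gene, Mir219a-1 and Mir219a-2 included, so this sum leaves out reads that fit several copies and is a minimum beside lists of single-copy genes. Of the 22 brain-enriched genes tested, 5 were called higher in replicate 2 and 8 were called lower, which is near the 27.1% of all genes called in each direction. Endothelial Mir126a stood at 24839 ± 1986 CPM and the mesenchymal list at 19649 ± 5575 CPM, from 15707 CPM in replicate 1 to 23591 CPM in replicate 2, led by Mir143, Mir140, Mir214 and Mir199b. The epithelial list gave 3157 ± 555 CPM, led by Mir203, Mir205, Mir429 and Mir200c, with 6 of its 7 genes called higher in replicate 2 (27.1% over all genes). The leukocyte list (Mir223, Mir155, Mir146 and Mir150) gave 688 ± 114 CPM and the erythroid list (Mir451a, Mir144 and Mir486) 342 ± 100.1 CPM. Liver Mir122 stood at 39.1 ± 43.0 CPM and the muscle list at 22.6 ± 0.25 CPM, nearly all from Mir206. Of the 4 leukocyte genes, 3 were called higher in replicate 2 and 1 lower. Of the 3 erythroid genes, Mir486 was called higher, Mir451a lower and Mir144 was not called. Mir122 was called higher, from 8.64 to 69.5 CPM, and Mir206 was not called. These calls too stand beside 27.1% of all genes in each direction. Of the 7 mesenchymal genes, 6 were called higher in replicate 2, again beside 27.1% of all genes, and 1 was not called, while Mir101b was called lower and Mir101a was not called. The part of these cell types in the ratios of the Mir101 genes was not tested.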

How the data were processed

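Small RNA of 2 midbrain pools was sequenced. The authors deposited raw counts per microRNA gene, derived from alignments to mm10 with annotation M4, per the read-me files. Neither aligner nor counter is named in the labels or read-me files, so both are not given here. The 3 count columns carry no header. They were read as either, own and opposite strand from their layout: the first equals the sum of the other two for all 1973 genes, and column 3 holds 97.6% and 97.5% of it. Column 3 was used, with 4629302 assigned counts in replicate 1 and 2805487 in replicate 2; rows that name no gene held 56.9% and 58.2% of reads and were left out. Symbols and positions came from GENCODE M21 (1894 of 1973 identifiers matched), and sequences from RefSeq (both members matched).

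CPM used own-strand totals. Genes with at least 10 counts in both libraries were compared by two-sided Fisher's exact test of each gene against the rest of its library, adjusted by Benjamini-Hochberg with a threshold of 0.05 (scipy 1.17.1, statsmodels 0.14.6), after a check on simulated data. This test compares libraries with counting noise, since 2 replicates of 1 group allow no quasi-likelihood test. The common dispersion came from edgeR 4.0.16. Folds came from RNAfold 2.7.2. Alternatives used TMM, DESeq2 1.42.0 size factors, other denominators, strands and count filters.

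The named genes were the members, their seed relatives, up to 4 most abundant genes of each list, the 5 genes nearest to each member in log2 CPM, the 2 genes above and below it in rank, and the listed paralog pairs. The members and lists were chosen with earlier results of these data known.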

Additional observations from a re-analysis of the deposited data

How the results depend on the processing

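The log2 ratios of Mir101a (0.01 to 0.05) and Mir101b (-0.14 to -0.11) kept their direction and their side of the threshold under all 6 alternatives run for each: TMM, DESeq2 size factors, a total without Mir99a, reads on either strand, no filter and a minimum of 100 counts. The number of genes called between the libraries ranged from 196 to 214, but the number tested changed with the filter. With a minimum of 100 counts, 196 of 270 genes were called, and with no filter 199 of 746. The background share of 54.2% (206 of 380) thus holds for the main filter of 10 counts in both libraries. Levels follow their denominator. With all reads of a library as the denominator, Mir101a stood at 162 CPM, Mir101b at 770.0 CPM and the family at 932 CPM; with Mir99a left out of the total they stood at 447, 2117 and 2563 CPM; and with reads on either strand Mir101a stood at 374 CPM. Per hairpin nucleotide, Mir101a held 19.8% of the family. Leaving out either replicate gave 377 to 389 CPM for Mir101a, 1745 to 1882 CPM for Mir101b, 2134 to 2259 CPM for the family and 16.7 to 18.2% for the share of Mir101a. No paired analysis was possible because the libraries form 1 group. Depth limits the smaller gene more: the counting SE of the log2 ratio was 0.06 for Mir101a and 0.03 for Mir101b.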
